A study of Mus musculus with 29 samples.

Results

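The structural matrix of the mouse uterus was followed through 57 genes in early gestation, after exposure of newborn females to the plant oestrogen genistein or to corn oil. The genes were all those on the array named as a collagen chain (43 genes, named Col, a number, a, and a number) together with 14 matrix genes chosen by symbol: Ltbp1, Ltbp2, Ltbp3, Ltbp4, Fn1, Fbn1, Fbn2, Lum, Dcn, Bgn, Eln, Postn, Tnc and Vcan. They made up 57 of the 27670 gene names measured. The rule reads names alone, but it was set with earlier results of these data known. The members were read by 111 probes, and for the 38 members with more than 1 probe the brightest one stood for the gene. Of the members, 50 were well above background on all 29 arrays. Col10a1, Col19a1 and Col28a1 were above background on 1, 2 and 5 arrays, and Col10a1 and Col19a1 entered no test.

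Uterine RNA came from female CD-1 mice, an outbred stock. On postnatal days 1 to 5 they had received genistein at 50 mg/kg/day (GEN) or, as controls, corn oil (CON), and the uteri were taken on gestation day (GD) 1.5, 3.5, 4.5 or 5.5. There were 4 GEN and 3 CON samples at GD1.5, 3 GEN and 3 CON at GD3.5, 4 GEN and 4 CON at GD4.5, and 4 GEN and 4 CON at GD5.5, each on 1 single-colour array. The labels name the organ as uterus and do not say which tissue layers or implantation sites it held, nor whether samples are of different animals, and each p-value therefore reflects variation among the samples alone.

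Collagens are triple helices built of 3 alpha chains. As background, fibrillar collagens carry tension in stroma and muscle, network collagens of type IV form the sheet of basement membranes, beaded filaments of type VI link cells to fibrils, and the FACIT collagens sit on the surface of fibrils. Latent TGF-beta binding proteins and fibrillins form microfibrils that hold TGF-beta in the matrix, small leucine-rich proteoglycans govern the width and spacing of fibrils, and tenascin C, periostin and fibronectin regulate how cells attach. In rodents the collagen network around stromal cells is taken apart and rebuilt when the stroma turns into decidua at implantation, and smooth muscle, stroma, glands and vessels each add their own matrix. Since uterine tissue was measured in bulk, fewer cells of a type and less RNA per cell cannot be told apart.

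The GD1.5 and GD3.5 samples lay on slides 1 to 4 (13 arrays, 71.3 to 78.1% of spots well above background, a 75th percentile of intensity of 1490 to 1840) and those of GD4.5 and GD5.5 on slides 5 to 8 (16 arrays, 65.5 to 80.9%, 733.9 to 994.8). GD4.5 minus GD3.5 cannot be told apart from that change of slides and was not tested. One control array, GD3.5 CON 3, was by itself on slide 4 and was scanned separately. Arrays of a group correlated at r = 0.959 to 0.995. A level below is the log2 intensity of the gene's probe relative to the 75th percentile of its array, and a difference is between group means of that level. Levels of different genes come from different probes and are not set against each other. A member was called where limma's moderated test, fitted on all 29 arrays, gave a Benjamini-Hochberg adjusted p under 0.05 over all genes tested.

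Few members of the structural matrix were called between exposures. GEN uteri differed from CON in Ltbp2 and Col12a1 at GD3.5 and in Col12a1 alone when the 4 days were averaged, each time upward, and no member was called at GD1.5, GD4.5 or GD5.5. At GD3.5, 2 of 55 members tested were called, both higher, against 0.127% of all genes tested called in either direction (26 of 20407) and 0.0441% called higher. The averaged difference called 1 of 55 members, against 1.04% of all genes (243 of 23349) and 0.343% called higher. At GD1.5, 0 of 53 members were called (0.0975% of all genes), at GD4.5, 0 of 54 (0.12%), and at GD5.5, 0 of 53 (0%) by limma. The numbers with an unadjusted p under 0.05 were 3 at GD1.5, 5 at GD3.5, 8 at GD4.5, 7 at GD5.5 and 11 for the average, where 6.3%, 5.69%, 9.66%, 5.5% and 9.91% of all genes tested passed the same limit. The GD5.5 count was 4 without GD5.5 GEN 4 (Col6a1, Col6a2 and Dcn higher and Col8a2 lower; 7.55% of 53, against 1.29% of all genes), and it was 13 after normexp background correction (24.5% of 53, against 47.2% of all genes).

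Ltbp2 encodes latent TGF-beta binding protein 2, which binds fibrillin 1 and differs from its relatives in not binding the latent growth factor. At GD3.5 its level was 0.24, -0.20 and -0.30 on the GEN arrays, against -2.04, -1.86 and -2.53 on the CON arrays. All 3 GEN arrays lay above all 3 CON arrays, and the difference was 2.06 (SE 0.35, 95% interval 1.34 to 2.78, 4.16-fold, adjusted p = 0.0131, limma). Within the slides that held both exposures it was 1.56 to 2.28. At GD1.5 the GEN arrays had 0.11, 0.34, -0.61 and -0.84, against -1.21, -0.80 and -0.64 in CON, and the groups overlapped. At GD4.5 the level was -2.01, -1.20, -0.96 and -1.36 in GEN and -1.17, -0.52, -1.51 and -1.36 in CON, and at GD5.5 it was -0.50, -0.51, -0.18 and 0.53 in GEN and 0.62, -0.23, 0.12 and 0.76 in CON, overlapping on both days. The call at GD3.5 was lost without GD3.5 CON 3 (difference 1.87, adjusted p = 0.102), without GD3.5 GEN 1 (0.101) or without GD3.5 GEN 3 (0.0619), with slide as a fixed block (1.88, 0.0878), on the GD3.5 arrays alone (0.0585), with the replicate number as a block (2.31, 0.103) and with the mean of its 2 probes (0.90, 0.651). Its second probe was above background on 0 of the 6 GD3.5 arrays and gave -0.25.

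Col12a1, a FACIT collagen that decorates type I fibrils, was called both at GD3.5 and over the average of the 4 days. Its level at GD3.5 was -2.04, -2.15 and -2.28 on the GEN arrays, against -3.15, -3.46 and -2.98 on the CON arrays. Every GEN array stood above every CON array, by 1.04 on average (SE 0.18, 95% interval 0.66 to 1.41, 2.06-fold, adjusted p = 0.0176; 1.11 to 1.18 within slides). Without GD3.5 CON 3 the difference was 1.15 (adjusted p = 0.0371), and the call was lost without GD3.5 CON 2 (0.082), GD3.5 GEN 1 (0.109) or GD3.5 GEN 3 (0.0906), on the GD3.5 arrays alone (0.0867), with the replicate block (0.216) and after normexp background correction, which put it at 0.63 (0.804). On the other days the groups overlapped. At GD1.5 it was -2.48, -2.57, -2.15 and -2.32 in GEN and -3.22, -2.58 and -2.53 in CON, at GD4.5 -2.67, -2.29, -2.21 and -2.11 in GEN and -2.60, -3.01, -2.81 and -2.67 in CON, and at GD5.5 -2.54, -2.38, -2.20 and -2.20 in GEN and -2.54, -2.68, -2.24 and -2.32 in CON. The differences by day were 0.40 (adjusted p = 0.676), 0.45 (0.299) and 0.12 at GD1.5, GD4.5 and GD5.5. Averaged over the 4 days the difference was 0.50 (SE 0.084, 95% interval 0.33 to 0.68, 1.42-fold, adjusted p = 0.00211). That average was called in all 11 alternative settings (0.46 to 0.54, adjusted p 0.000674 to 0.0366) and with each of the 29 arrays left out in turn (0.45 to 0.53).

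**Figure D1:**
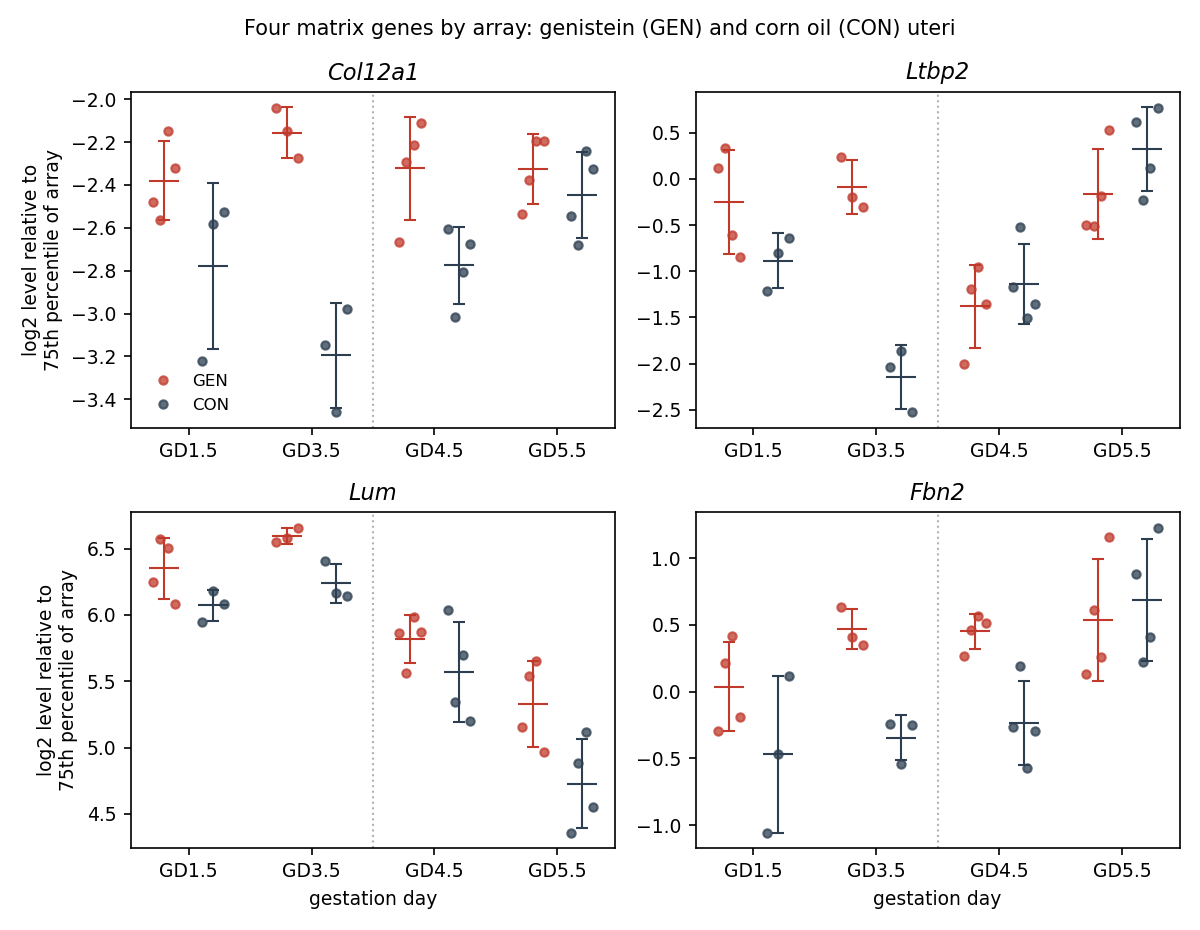
Levels of Col12a1, Ltbp2, Lum and Fbn2 on each array (points), with group means and SD, GEN left of CON on each gestation day; the vertical axis is log2 intensity relative to the 75th percentile of the array, and the dotted line marks the change of slides between GD3.5 and GD4.5. At GD3.5 the GEN arrays of all 4 genes lie above the CON arrays, and at GD5.5 they overlap.

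At GD3.5 the arrays of the exposures did not overlap for 18 of 55 members (32.7%, with 2 called, against 20.3% of all genes without overlap and 0.127% called), 15 of them higher in GEN. The fall side held Col4a4, Col22a1 and Col28a1. The other days had fewer such members: 2 of 53 at GD1.5 (Col1a2 and Col6a6, both higher in GEN, against 8.32% of all genes), 5 of 54 at GD4.5 (Col6a3, Col14a1, Fbn2 and Fn1 higher and Col9a3 lower, against 4.15%) and 1 of 53 at GD5.5 (Col1a2, higher, against 1.72%). The median difference of the members was 0.03 at GD1.5, 0.10 at GD3.5, 0.05 at GD4.5 and 0.09 at GD5.5, where the median over all genes tested was -0.01, -0.03, -0.04 and -0.01. Averaged over days it was 0.08, against -0.02 for all genes, and 40 of 55 members were above 0.

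Among members that did not pass, lumican and fibrillin 2 came nearest. Lum, a keratan sulfate proteoglycan that limits fibril width, had 6.55, 6.58 and 6.66 on the GD3.5 GEN arrays and 6.40, 6.16 and 6.15 on the CON arrays, without overlap, while the GD5.5 arrays, 5.15, 5.54, 5.65 and 4.96 in GEN and 4.36, 4.88, 5.11 and 4.55 in CON, overlapped. Its averaged difference of 0.37 had an adjusted p of 0.0677, and it was called in 4 of 11 alternatives, quantile normalization among them (0.42, 0.0423), and without GD1.5 GEN 4, GD4.5 CON 1, GD5.5 GEN 4 or GD5.5 CON 3. Fbn2, the fibrillin of developing microfibrils, had 0.64, 0.41 and 0.35 in GEN and -0.24, -0.54 and -0.25 in CON at GD3.5, and 0.27, 0.46, 0.57 and 0.51 in GEN and -0.26, 0.19, -0.57 and -0.30 in CON at GD4.5. The arrays were apart on both days, and neither the difference of 0.81 at GD3.5 (adjusted p = 0.523) nor that of 0.69 at GD4.5 (0.323) passed; averaged it was 0.47 (0.104), and 0.54 (0.0402) without GD1.5 CON 3. Fn1, which encodes fibronectin, likewise stood at 2.76, 2.94, 3.36 and 2.95 in GEN and 2.67, 2.25, 2.34 and 2.15 in CON at GD4.5, a difference of 0.65 without overlap and with an adjusted p of 0.219.

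No chain of the type I or type III fibrils was called between exposures. Col1a1 averaged 0.07 higher in GEN (95% interval -0.04 to 0.18) and Col3a1 0.12 (-0.01 to 0.26). Col1a2 had 7.48, 7.78, 8.08 and 7.67 on the GD5.5 GEN arrays and 7.04, 7.11, 7.46 and 7.32 on the CON arrays, the one member apart on that day (difference 0.52, adjusted p = 0.291). Col1a2 and Col3a1 were among the 7 members with an unadjusted p under 0.05 at GD5.5 by limma. Col1a2 was also below that limit for the average, which was 0.16 to 0.22 over 11 alternatives, with 0 calls. For Col4a1, of the basement membrane, the averaged difference was 0.10 (95% interval -0.09 to 0.30), for Eln, the elastin gene, 0.08 (-0.18 to 0.33), for Postn, which encodes periostin, -0.03 (-0.29 to 0.22) and for Vcan, which encodes versican, -0.10 (-0.53 to 0.33). Col6a4 had the widest averaged difference of those with an unadjusted p under 0.05, 0.76 (95% interval 0.25 to 1.28, adjusted p = 0.186). On the low side were Col22a1 (-0.69, adjusted p = 0.322) and Col23a1 (-0.42).

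**Figure D2:**
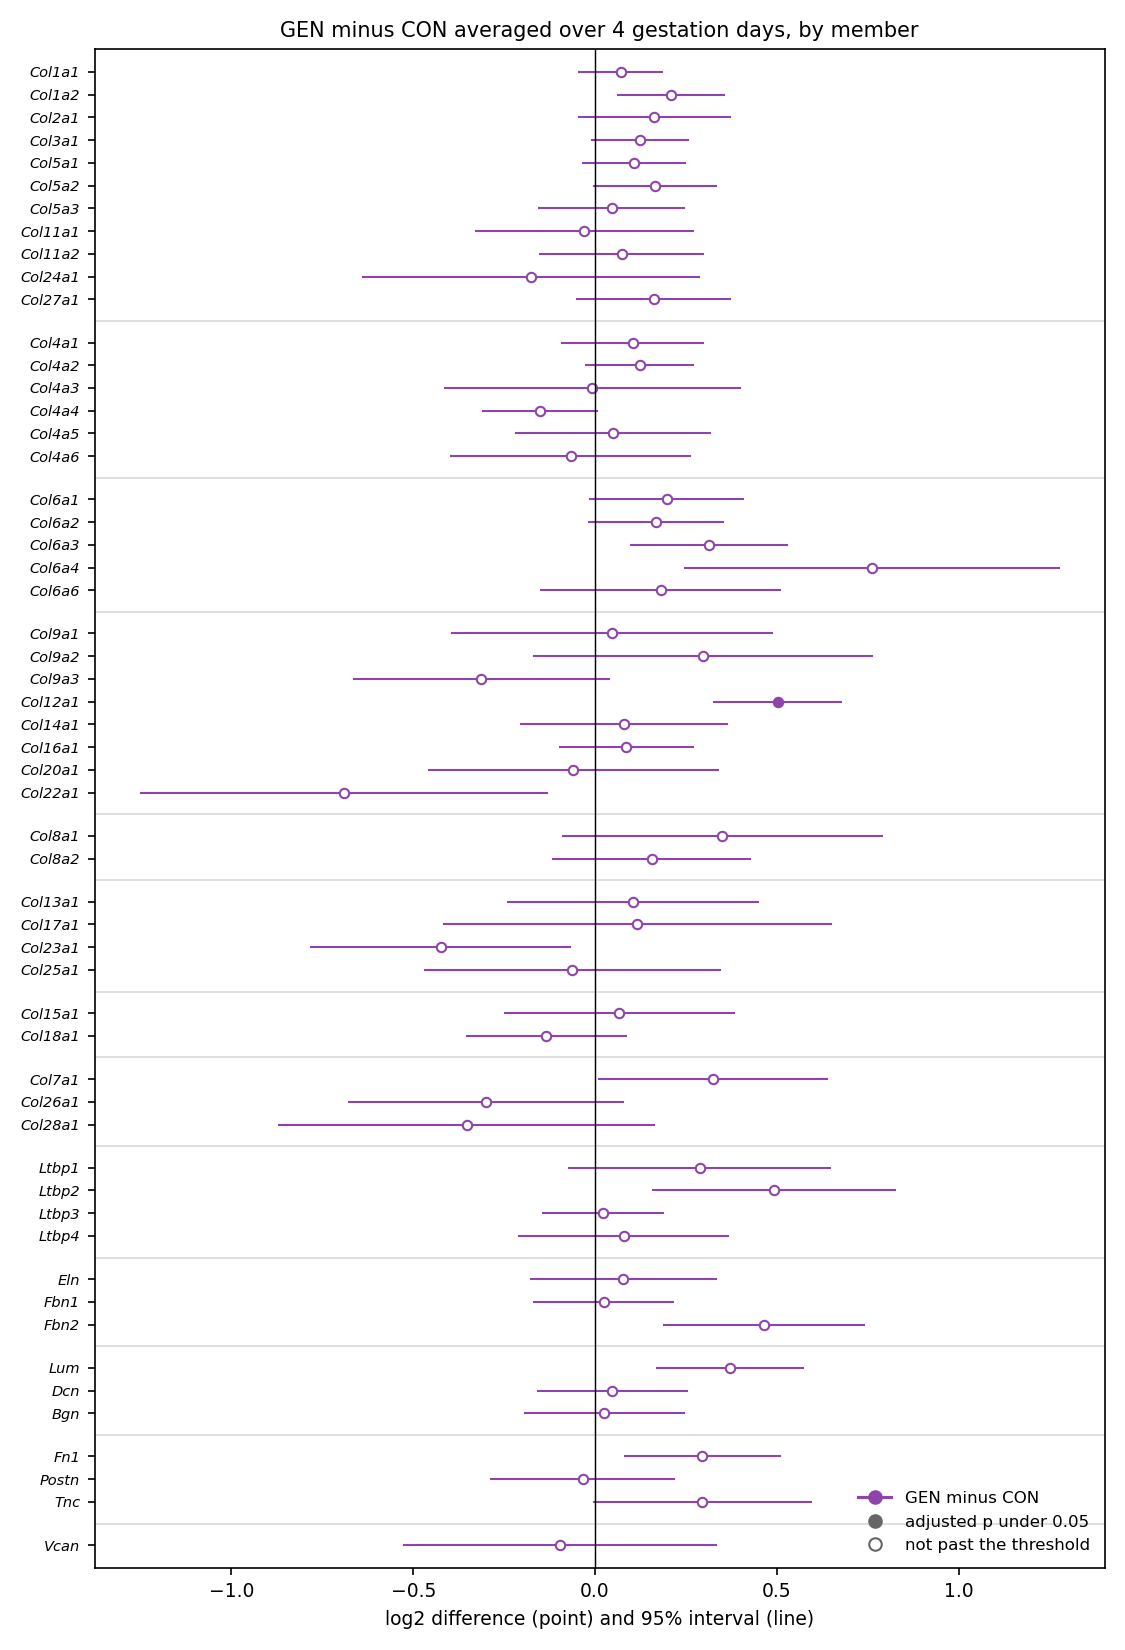
Difference GEN minus CON averaged over the 4 gestation days for the 55 members tested, in log2 units, with the 95% interval; a filled point is a member called at an adjusted p under 0.05. Col12a1 (0.50) is the only filled point, and 40 of the 55 points lie right of 0.

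Gland markers moved with exposure in the same samples. Of 8 genes of the endometrial gland list, 2 were called lower in GEN at GD1.5, 2 at GD3.5, 1 at GD4.5, 0 at GD5.5 and 6 averaged over days. In the same order, 0.0975%, 0.127%, 0.12%, 0% and 1.04% of all genes tested were called in either direction. At GD3.5 their summed level (linear intensity over the array's 75th percentile, added over the list) was 0.99 to 2.81 on the GEN arrays and 6.59 to 14.1 on the CON arrays. The 11 other marker lists, smooth muscle, stroma, decidual cell, epithelium, endothelium, macrophage, mesothelium, adipocyte, cartilage, ovary and red blood cell, had 0 genes called between exposures on any day by limma. The summed smooth muscle level at GD3.5 was 753.1 to 825.3 in GEN and 670.1 to 696.2 in CON, apart, with 10 of 10 genes above 0 in difference. The summed stroma level was apart on that day too, in the other direction, with 115.7 to 121.2 in GEN and 122.9 to 154.9 in CON. At GD4.5 the mesothelium sums were apart, 13.76 to 22.68 in GEN and 10.11 to 13.31 in CON. The part of these lists in the Ltbp2 and Col12a1 differences was not tested.

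Between GD1.5 and GD3.5, before implantation, 3 members were called in both exposures. In GEN uteri 7 of 54 (13.0%) were called, 6 higher and 1 lower at GD3.5, against 5.07% of all genes (1035 of 20401; 2.58% higher and 2.49% lower). In CON uteri 4 of 55 (7.27%) were called, 3 higher and 1 lower, against 2.54% (523 of 20620; 1.15% higher and 1.39% lower). An unadjusted p under 0.05 was reached by 14 of 54 members in GEN, 13 of them higher (18.6% of all genes), and by 16 of 55 in CON, 12 of them higher (14.2%). Of Col22a1, Col23a1 and Tnc, called in both, the first 2 rose and Tnc fell. The remaining rise counted in CON, Col28a1, passed the filter for testing only through the GD3.5 CON arrays, where it was high.

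Col23a1 encodes a transmembrane collagen of the cell surface. It had 0.81, 0.88 and 0.94 on the GD3.5 GEN arrays, against -2.30, -1.25, -1.61 and -1.83 on the GD1.5 GEN arrays, a rise of 2.62 (SE 0.35, 6.16-fold, adjusted p = 6.97e-05, limma). In CON it had 1.17, 1.13 and 0.85 at GD3.5, against -0.85, -1.04 and -1.64 at GD1.5, a rise of 2.23 (SE 0.37, 4.69-fold, adjusted p = 0.0013). The days did not overlap in either exposure, and the call stood with any 1 array left out. Col22a1, a FACIT collagen found at tissue junctions such as that of muscle and tendon, had 0.24, 0.25 and 0.28 at GD3.5 and -3.37, -2.57, -3.06 and -0.79 at GD1.5 in GEN. Its rise was 2.71 (SE 0.55, 6.53-fold, adjusted p = 0.00431). In CON the levels were 0.98, 0.96 and 0.56 at GD3.5 and -1.19, -1.50 and -1.46 at GD1.5, a rise of 2.21 (adjusted p = 0.0435) that was not called once any 1 of the 6 arrays was left out.

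Tnc encodes tenascin C, a matricellular protein that loosens cell attachment. In GEN it had -1.65, -1.43 and -1.79 at GD3.5, against -0.62, -0.01, -0.82 and -0.45 at GD1.5, and fell by 1.15 (SE 0.29, 2.21-fold, adjusted p = 0.0217). On the CON arrays it had -2.08, -2.70 and -2.27 at GD3.5, against -0.34, -0.66 and -1.61 at GD1.5, and fell by 1.48 (SE 0.31, 2.78-fold, adjusted p = 0.0102). The days were apart in both exposures, and without single arrays the call stood in 3 of 7 fits in GEN and 3 of 6 in CON. The other calls in GEN were Col9a2 (1.84, adjusted p = 0.0187), Col26a1 (1.28, 0.043), Col11a1 (1.21, 0.0158) and Col13a1 (1.16, 0.0459). In CON, Col28a1 was called higher at GD3.5, with -6.23, -6.84 and -6.26, against -9.14, -8.61 and -8.52 at GD1.5. It was above background on none of the GD1.5 CON arrays and entered the test only through the GD3.5 CON arrays. The call is therefore not read as a result. Over 10 alternatives its difference was 0.79 to 2.48 (adjusted p 0.00699 to 0.476, limma), with the call in 7. Of the 3 fits with 1 array left out that tested it, 1 kept the call.

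These counts moved with single libraries. The GEN count was 2 without GD3.5 GEN 3 or GD3.5 GEN 4, 3 without GD1.5 GEN 1, and 4 without GD1.5 GEN 2 or GD3.5 GEN 1. The CON count was 1 without GD1.5 CON 1 or GD1.5 CON 2, and 2 without any 1 of the GD3.5 CON arrays. In these fits 3.77 to 7.41% of members were called in GEN, against 1.76 to 3.68% of all genes, and 1.82 to 3.77% in CON, against 0.791 to 2.02%. The difference between exposures in this change was called for 0 of 55 members and 0% of 21068 genes by limma. An unadjusted p under 0.05 (2.42% of all genes) was reached by 2 members, Ltbp2 (1.42, 95% interval 0.43 to 2.41) and Col12a1 (0.64, 0.13 to 1.16), with an adjusted p of 1 for both. Ltbp2 itself differed by 0.16 in GEN and by -1.26 in CON (adjusted p = 0.0533 in CON).

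The matrix changed in more members between GD4.5 and GD5.5, when decidua forms. In GEN uteri 22 of 54 members (40.7%) were called, 3 higher and 19 lower at GD5.5, against 22.4% of all genes (4690 of 20949; 13.2% higher and 9.2% lower). In CON uteri 29 of 54 (53.7%) were called, 7 higher and 22 lower, against 30.9% of all genes (6706 of 21685; 16.5% higher and 14.4% lower). In both exposures the members' share called lower lay above the background, and their share called higher lay below it. The member median was -0.45 in GEN and -0.32 in CON, where the median over all genes was 0.09 and 0.02.

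The GEN count moved with the fit. On the GEN arrays of these days alone limma called 0 members and 0 of 20949 genes, with 21 members at an unadjusted p under 0.05 (21.3% of all genes), where the fit on all arrays had 31 (36.5%). With slide as a fixed block the count was 4 (Col22a1, Col8a2, Col18a1 and Tnc), or 7.41% of members against 5.27% of all genes, and after normexp 32, or 59.3% against 56.5%. Without GD5.5 GEN 1 it was 9 (16.7% of members, against 11.5% of all genes), without GD4.5 GEN 4 it was 12 (22.2%, against 11.9%), and without GD4.5 GEN 3 or GD5.5 GEN 4 it was 14 (25.9%, against 15.4% and 14.8%). The CON count was 22 (40.7%, against 22% of all genes) on the CON arrays of these days alone, 27 with slide as a fixed block and 24 to 30 with 1 array left out. Of the single calls, 8 of 22 in GEN and 22 of 29 in CON stood whichever array was left out. The difference moved by over 1.5 times, and the call was lost, for Col4a5 in GEN without GD5.5 GEN 1, for Col6a1 and Dcn in GEN without GD5.5 GEN 4, and for Col17a1 and Col4a3 in CON without GD5.5 CON 1 or 3.

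Members with large changes over this day are shown with the 250 bases before their RefSeq transcription start (GRCm38.p6), for the 2 largest called rises and the 2 largest called falls in CON among members with exactly 1 start in the table. Each is printed on the gene's own strand, with matches to 3 motifs, on either strand, in capitals. The motifs are the letters TATAAA of the classical core promoter box, the 5 letters that name the CCAAT box, and GGGCGG, the core of the GC box that Sp1 binds. The windows are chr4:126286544-126286793 (plus strand, Col8a2), chr12:84876492-84876741 (minus, Ltbp2), chr9:106096692-106096941 (minus, Col6a4) and chr4:47207762-47208011 (plus, Col15a1).
Col8a2: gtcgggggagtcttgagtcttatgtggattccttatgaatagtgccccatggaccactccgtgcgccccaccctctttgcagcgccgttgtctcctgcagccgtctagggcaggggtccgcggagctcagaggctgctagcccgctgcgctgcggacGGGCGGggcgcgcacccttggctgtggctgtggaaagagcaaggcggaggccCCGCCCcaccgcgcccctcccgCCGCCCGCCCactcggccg
Ltbp2: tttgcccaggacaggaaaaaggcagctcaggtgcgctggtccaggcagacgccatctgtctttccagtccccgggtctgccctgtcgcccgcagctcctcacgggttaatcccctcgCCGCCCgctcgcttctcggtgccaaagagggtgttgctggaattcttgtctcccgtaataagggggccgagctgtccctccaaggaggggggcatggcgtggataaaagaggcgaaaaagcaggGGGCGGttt
Col6a4: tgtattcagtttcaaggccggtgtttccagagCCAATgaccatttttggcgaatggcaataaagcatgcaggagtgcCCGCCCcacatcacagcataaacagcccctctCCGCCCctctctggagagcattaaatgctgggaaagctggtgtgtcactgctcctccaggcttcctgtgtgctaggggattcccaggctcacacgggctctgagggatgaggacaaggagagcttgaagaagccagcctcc
Col15a1: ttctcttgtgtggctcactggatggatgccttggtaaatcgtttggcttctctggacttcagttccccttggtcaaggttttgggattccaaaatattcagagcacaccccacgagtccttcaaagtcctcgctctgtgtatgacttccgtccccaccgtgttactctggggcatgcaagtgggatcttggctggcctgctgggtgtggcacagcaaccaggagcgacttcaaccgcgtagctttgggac

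The windows of the 2 genes that rose held 4 (Col8a2) and 2 (Ltbp2) GC boxes and 70.0% and 61.6% G and C. Of the 2 that fell, Col6a4 held 1 CCAAT box and 2 GC boxes at 55.2%, and Col15a1 none of the motifs at 53.6%. Over the 43 members with a promoter window in the table, 26 (60.5%) held a GC box, 16 (37.2%) a CCAAT box and 7 (16.3%) the first motif, the TATA box, against 35.36%, 37.49% and 14.33% of the 27025 genes with a window. The full palindromic oestrogen response element was in 0 of the 43 and in 18 genes (0.07%). A gene counted once, whichever of its windows held the motif.

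Col8a2 encodes a short-chain collagen that forms hexagonal networks, such as the one beneath the corneal endothelium. In GEN it had 1.56, 1.36, 0.68 and 2.37 at GD5.5, against -0.54, -0.96, -0.60 and -0.28 at GD4.5, a rise of 2.09 (SE 0.25, 4.26-fold, adjusted p = 2.18e-05, limma). Its CON levels were 2.07, 2.74, 1.82 and 1.75 at GD5.5, against -0.88, -1.19, -0.79 and -1.06 at GD4.5, a rise of 3.08 (SE 0.25, 8.43-fold, adjusted p = 2.79e-08). The days were apart in both exposures, and at GD5.5 the SD was 0.69 in GEN and 0.45 in CON. The FACIT collagen Col22a1, which had risen from GD1.5 to GD3.5, stood in GEN at 4.07, 3.75, 2.80 and 5.03 at GD5.5, against 1.23, 2.07, 1.27 and -0.67 at GD4.5 (2.94, SE 0.51, 7.65-fold, adjusted p = 0.000586). In CON it stood at 4.89, 4.72, 3.82 and 4.88 at GD5.5, against 1.25, 1.80, 1.44 and 1.25 at GD4.5 (3.14, SE 0.51, 8.84-fold, adjusted p = 9.24e-05). The days were apart here too, and a second Col22a1 probe gave 2.28 in GEN and 2.60 in CON.

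Ltbp2 was called higher in both exposures as well, by 1.22 in GEN (SE 0.30, 2.32-fold, adjusted p = 0.0076) and 1.46 in CON (SE 0.30, 2.75-fold, adjusted p = 0.000954), with the array levels given above for GD5.5 and GD4.5. Col14a1, a FACIT collagen of fibril surfaces, had 3.47, 3.72, 3.29 and 4.36 at GD5.5 and 3.53, 3.65, 3.16 and 2.91 at GD4.5 in GEN, overlapping, with a difference of 0.40 (adjusted p = 0.265). In CON it had 4.20, 4.04, 4.09 and 4.32 at GD5.5 and 2.74, 2.81, 2.48 and 2.70 at GD4.5, apart, with a difference of 1.47 (SE 0.26, 2.78-fold, adjusted p = 0.000203), whereas its second probe gave -0.28. Vcan, Fbn2 and Col1a1 were also called higher in CON. Their differences were 0.43, 0.09 and 0.26 in GEN, and 1.07 (adjusted p = 0.0401), 0.92 (0.00732) and 0.34 (0.0145) in CON.

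**Figure D3:**
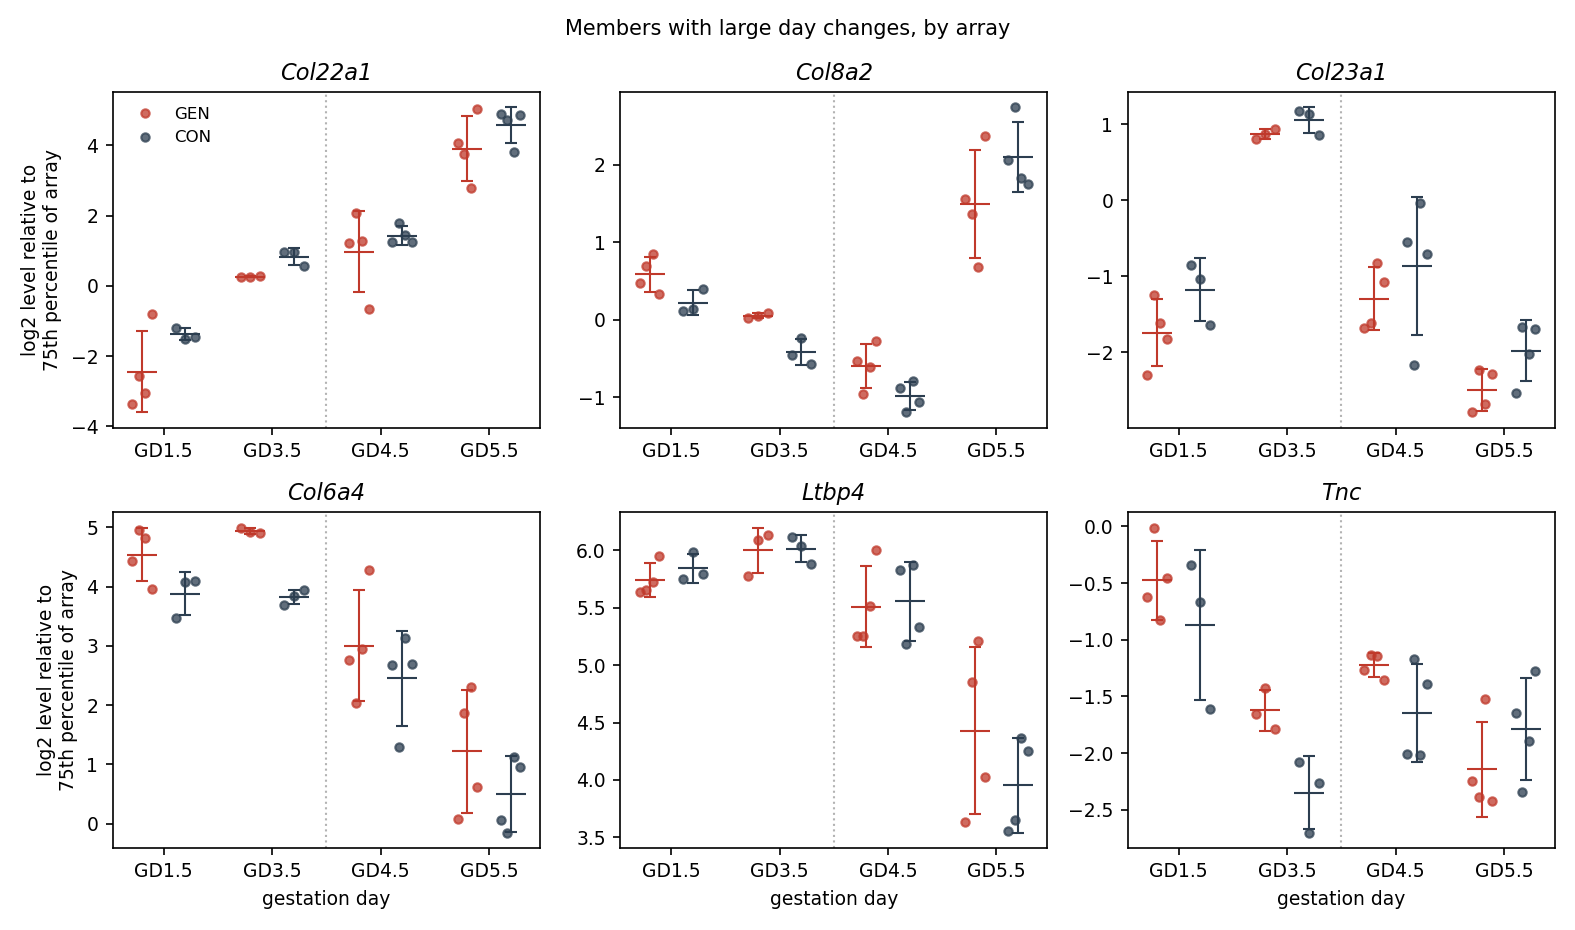
Levels of Col22a1, Col8a2, Col23a1, Col6a4, Ltbp4 and Tnc on each array (points), with group means and SD, GEN left of CON on each gestation day; the vertical axis is log2 intensity relative to the 75th percentile of the array, and the dotted line marks the change of slides. Right of the line Col8a2 and Col22a1 have higher and Ltbp4 and Col6a4 lower means at GD5.5 than at GD4.5 in both exposures, and left of it Col23a1 has a higher mean at GD3.5 than at GD1.5.

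The type VI chains were mostly called lower, 3 of 5 in GEN and 4 of 5 in CON. Col6a4 had 0.08, 1.87, 2.31 and 0.61 at GD5.5 and 2.76, 2.04, 2.94 and 4.28 at GD4.5 in GEN (-1.79, SE 0.47, 3.46-fold lower, adjusted p = 0.0102), overlapping, and that call was lost without GD4.5 GEN 4 (adjusted p = 0.0538) or GD5.5 GEN 1 (0.0534). Its CON levels were 0.06, -0.15, 1.13 and 0.95 at GD5.5 and 2.67, 1.30, 3.13 and 2.69 at GD4.5, apart (-1.95, SE 0.47, 3.87-fold lower, adjusted p = 0.00299). These were the largest falls among the members in each exposure. Col6a1, a chain of the common type VI filament, had 3.73, 4.27, 4.38 and 3.35 at GD5.5 and 4.23, 4.24, 4.54 and 5.05 at GD4.5 in GEN, which overlap (-0.58, adjusted p = 0.0325, and -0.39, 0.138, without GD5.5 GEN 4). On the CON arrays it had 3.19, 3.24, 3.61 and 3.32 at GD5.5 and 4.77, 4.34, 4.74 and 4.18 at GD4.5, which do not (-1.16, adjusted p = 0.000109). Col6a2 fell by 0.58 in GEN (adjusted p = 0.0164) and 1.17 in CON (2.71e-05), Col6a6 was called in CON alone (-0.46 in GEN and -1.12 in CON, adjusted p = 0.278 and 0.00678), and Col6a3 passed in neither.

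Of the 4 latent TGF-beta binding proteins, Ltbp2 was called higher and the other 3 lower in both exposures. Ltbp4, needed for elastic fibre assembly, had 3.63, 4.85, 5.21 and 4.03 at GD5.5 and 5.26, 5.25, 5.52 and 6.002 at GD4.5 in GEN (-1.08, adjusted p = 0.00671). In CON it had 3.55, 3.65, 4.36 and 4.25 at GD5.5 and 5.83, 5.19, 5.87 and 5.33 at GD4.5 (-1.60, SE 0.26, 3.03-fold lower, adjusted p = 0.000103). Ltbp1, which tethers latent TGF-beta, had -3.60, -2.48, -1.28 and -2.45 at GD5.5 and -1.24, -1.23, -0.77 and -0.39 at GD4.5 in GEN (-1.55, SE 0.33, 2.92-fold lower, adjusted p = 0.00259). The days did not overlap for either gene in either exposure. The CON arrays had Ltbp1 at -2.87, -3.50, -2.35 and -2.25 at GD5.5 and -1.02, -1.60, -1.34 and -1.17 at GD4.5 (-1.46, SE 0.33, 2.75-fold lower, adjusted p = 0.00178). Ltbp3 differed by -0.45 in both GEN (adjusted p = 0.0333) and CON (0.0264).

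The multiplexins, collagens of the zone beneath basement membranes, were both called lower in both exposures. Col15a1 had 0.79, 1.90, 2.02 and 0.91 at GD5.5 and 2.16, 2.30, 2.46 and 2.55 at GD4.5 in GEN (-0.96, adjusted p = 0.0197). On the CON arrays it had 0.84, 0.43, 1.20 and 1.34 at GD5.5 and 2.35, 2.13, 2.57 and 2.37 at GD4.5 (-1.40, SE 0.29, 2.64-fold lower, adjusted p = 0.000863). The days did not overlap in either exposure. Col18a1, whose product yields endostatin, fell by 0.92 in GEN (adjusted p = 0.00291) and by 1.23 in CON (9.2e-05). Of the 6 type IV chains, Col4a5 and Col4a6 were called lower in GEN (-0.70 and -1.01), and Col4a3 and Col4a6 in CON (-1.03 and -1.16). Without GD5.5 GEN 1, Col4a5 differed by -0.41 (adjusted p = 0.194) and Col4a6 by -0.70 (0.0997) in GEN. Col4a3 was above background on 1 of 4 GD5.5 and 3 of 4 GD4.5 CON arrays, its CON difference was -0.59 (0.184) without GD5.5 CON 3 and -0.11 (0.955) after normexp, and it was called in 6 of 10 alternatives and in 4 of 8 fits with 1 array left out. The chains of ordinary basement membranes did not pass: Col4a1 differed by 0.21 in GEN (adjusted p = 0.41) and 0.35 in CON (0.145), and Col4a2 by 0.06 and 0.0027.

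Col4a1 had 4.003, 4.02, 3.72 and 4.08 at GD5.5 and 3.77, 4.11, 3.85 and 3.25 at GD4.5 in GEN, and 4.08, 3.85, 3.94 and 4.16 at GD5.5 and 3.48, 4.002, 3.66 and 3.51 at GD4.5 in CON, with overlap in both. Of the 4 transmembrane collagens of the cell surface, 1 was called lower in GEN and 2 in CON. Col23a1, which had risen before, differed by -1.20 in GEN (adjusted p = 0.012) and -1.11 in CON (0.0119), and in CON it was not called without GD4.5 CON 3 (0.0633) or GD5.5 CON 1 (0.0544). Col17a1, of hemidesmosomes, differed by -0.71 in GEN (0.297) and -1.38 in CON (0.0337). Its GD5.5 CON levels were -7.08, -4.43, -4.91 and -4.46, the first far below the other 3, and without that array, GD5.5 CON 1, the CON difference was -0.76 (0.19). Col13a1 (0.29 in GEN and 0.31 in CON) and Col25a1 (0.90 in GEN and -0.26 in CON) passed in neither. Col7a1, which forms anchoring fibrils, fell by 0.91 in GEN (0.0259) and 1.25 in CON (0.00205).

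Fibrillar chains split. In GEN 3 of 11 were called, all lower: Col3a1 (-0.45), Col5a1 (-0.49) and Col2a1 (-0.64), the last with other probes at 0.45 and, above background on 0 of 8 arrays, 0.25. In CON Col1a1 was called higher, while Col1a2 (-0.64), Col2a1 (-0.84), Col3a1 (-0.60), Col5a1 (-0.56) and Col27a1 (-0.66) were called lower. Col1a1, the main chain of type I collagen, had 7.17, 7.02, 7.27 and 7.58 at GD5.5 and 6.93, 6.97, 7.06 and 7.03 at GD4.5 in GEN, and 7.42, 7.32, 6.94 and 7.23 at GD5.5 and 6.94, 6.83, 6.89 and 6.89 at GD4.5 in CON. In GEN 1 GD5.5 array lay within the GD4.5 range, and in CON the days were just apart. Col3a1, of the fine fibrils of soft stroma, had 6.26, 6.66, 7.01 and 6.60 at GD5.5 and 7.04, 6.95, 7.19 and 7.15 at GD4.5 in GEN, and 6.17, 6.32, 6.48 and 6.34 at GD5.5 and 7.04, 6.90, 6.92 and 6.88 at GD4.5 in CON. The Col3a1 days overlapped in GEN and were apart in CON.

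Among the small proteoglycans Dcn, which encodes decorin, fell in both exposures. It had 6.70, 7.18, 7.32 and 6.24 at GD5.5 and 7.17, 7.33, 7.58 and 7.59 at GD4.5 in GEN, overlapping (-0.56, adjusted p = 0.0353, and -0.35, 0.155, without GD5.5 GEN 4). Its CON levels were 5.87, 6.50, 6.72 and 6.33 at GD5.5 and 7.58, 7.24, 7.62 and 7.52 at GD4.5, apart (-1.14, SE 0.19, adjusted p = 0.000105). Lum differed by -0.49 in GEN (adjusted p = 0.0542) and -0.84 in CON (0.00137). Bgn, which encodes biglycan, differed by 0.47 in GEN and 0.29 in CON and passed in neither.

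Tnc and Fn1 were called lower in GEN and not in CON. Tnc had -2.24, -2.39, -1.52 and -2.42 at GD5.5 and -1.27, -1.14, -1.14 and -1.36 at GD4.5 in GEN, apart (-0.92, SE 0.27, adjusted p = 0.0191). In CON it had -1.64, -2.34, -1.89 and -1.27 at GD5.5 and -2.004, -1.17, -2.02 and -1.39 at GD4.5, overlapping (-0.14, adjusted p = 0.761). Other Tnc probes gave -0.35 (above background on 2 of 8 arrays) and -0.33 (6 of 8) in GEN. The GEN call of Tnc stood in 8 of 11 alternatives (-1.21 to -0.23) and in 5 of 8 fits with 1 array left out. Fn1 had 2.43, 2.54, 2.14 and 2.71 at GD5.5 and 2.76, 2.94, 3.36 and 2.95 at GD4.5 in GEN (-0.55, adjusted p = 0.0462), and 2.60, 2.03, 2.68 and 2.86 at GD5.5 and 2.67, 2.25, 2.34 and 2.15 at GD4.5 in CON (0.19, adjusted p = 0.53). The GEN days of Fn1 were just apart, and of its 2 other probes 1 gave -0.58 and the other 0.04 in GEN. Its call stood in 2 of 8 fits with 1 array left out.

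Postn and Eln passed in neither exposure. Postn had 3.52, 4.03, 4.74 and 4.34 at GD5.5 and 4.40, 3.96, 4.25 and 4.29 at GD4.5 in GEN, and 4.01, 4.06, 4.46 and 4.38 at GD5.5 and 4.27, 4.53, 4.20 and 3.80 at GD4.5 in CON (-0.07 in GEN and 0.03 in CON). Eln had -0.64, -0.26, -0.54 and -0.78 at GD5.5 and -0.79, -0.33, 0.14 and -0.13 at GD4.5 in GEN, and -0.37, -0.38, -0.28 and -0.20 at GD5.5 and -0.34, 0.24, -0.75 and -0.90 at GD4.5 in CON (-0.28 in GEN and 0.13 in CON). The days overlapped for both genes in both exposures. Vcan had 0.20, 0.42, 0.14 and 1.21 at GD5.5 and 0.45, 0.69, 0.37 and -1.28 at GD4.5 in GEN, where GD4.5 GEN 4 lay below the other 3, and 0.90, 0.70, 0.64 and 1.29 at GD5.5 and -0.04, 0.19, -0.998 and 0.09 at GD4.5 in CON, where the days were apart.

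**Figure D4:**
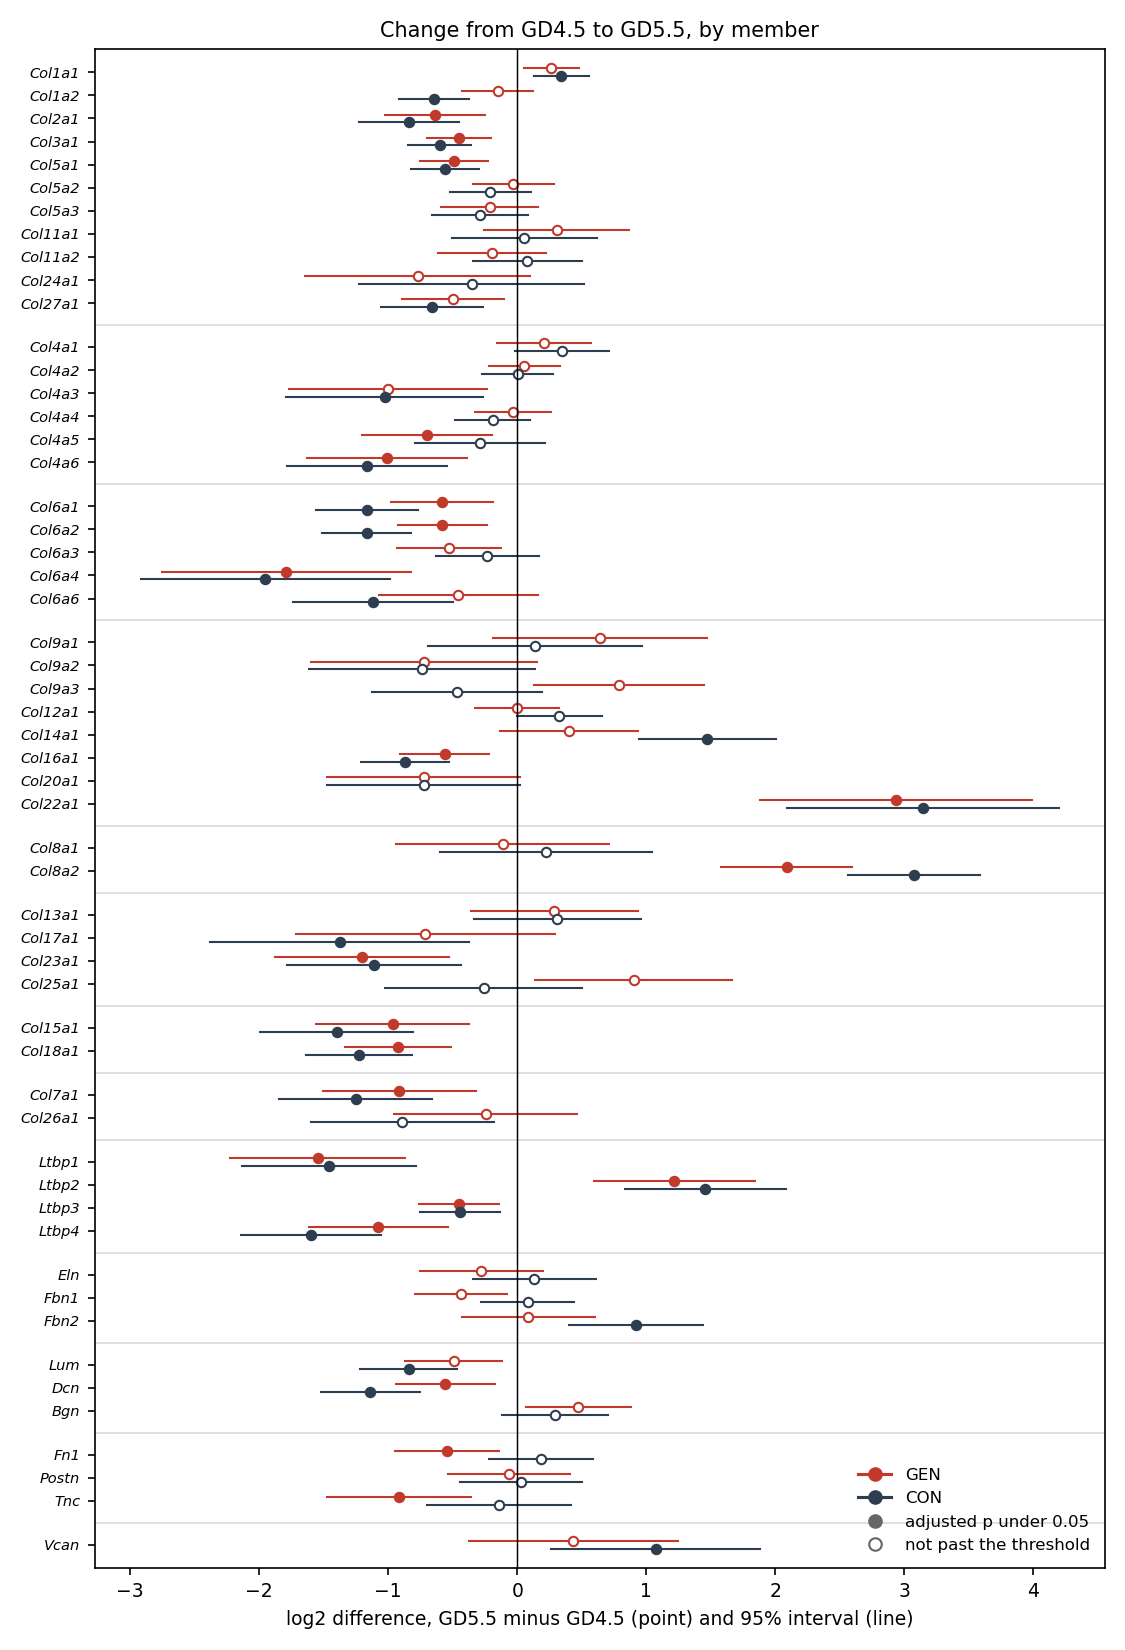
Difference GD5.5 minus GD4.5 for each member tested, GEN above CON, in log2 units with the 95% interval; filled points are called at an adjusted p under 0.05. Col22a1 and Col8a2 lie farthest right and Col6a4 farthest left, and 22 GEN and 29 CON points are filled.

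The exposures shared 3 of the members called higher (100% of the 3 in GEN and 42.9% of the 7 in CON) and 16 of those called lower (84.2% of the 19 in GEN and 72.7% of the 22 in CON). Of the 19 members called in both, 16 had a smaller difference in GEN than in CON (84.2%, against 71.9% of the 3421 genes called in both). The 3 called in GEN alone had a larger one. That follows from how they were selected, since 0 of all 1245 genes called in GEN alone had a smaller one. Over all 54 members tested 36 were smaller in GEN (66.7%, against 56.1% of genes). The difference between exposures in this change was itself called for 0 of 54 members, against 0.00443% of all genes (1 of 22560) by limma. An unadjusted p under 0.05 (7.44% of all genes) was reached by 11 members, among them Col14a1 (-1.07, 95% interval -1.83 to -0.31, adjusted p = 0.553), Col8a2 (-0.99, -1.71 to -0.26, 0.553), Col9a3 (1.25, 0.565) and Fn1 (-0.73, 0.592). The lists of calls are therefore not shown to differ between exposures.

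Some members lie next to each other on a chromosome, 7 pairs in the RefSeq annotation. In CON both genes of the pairs Col6a1 with Col6a2 and Dcn with Lum were called lower. In the pairs Col3a1 with Col5a2 (-0.21), Col4a3 with Col4a4 (-0.19) and Col4a6 with Col4a5 (-0.29), the first gene was called lower and the second, whose CON difference is given, did not pass. In GEN both genes were called lower for Col6a1 with Col6a2 and for Col4a6 with Col4a5, while Dcn and Col3a1 were called without their neighbours. Col4a1 and Col4a2, which start head to head, were uncalled in both exposures. Of the pair Col9a1 with Col19a1, the first was called in neither exposure and the second entered no test.

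Cell type markers changed over the same day. Of all genes tested, 13.2% were called higher and 9.2% lower in GEN, and 16.5% and 14.4% in CON. All 7 decidual genes tested were called higher at GD5.5 in both exposures; their summed level was 28.5 to 80.2 at GD5.5 and 11.6 to 27.3 at GD4.5 in GEN, and 51.8 to 97.9 at GD5.5 and 12.6 to 29.1 at GD4.5 in CON. Smooth muscle genes were called lower for 1 and higher for 1 of 10 in GEN (summed 514.8 to 1107 at GD5.5, 616.4 to 923.8 at GD4.5), and lower for 6 and higher for 1 in CON (581 to 745.8 at GD5.5, 876.1 to 910.7 at GD4.5). Epithelial genes fell for 3 of 10 in GEN (64.9 to 108.3 at GD5.5, 59.2 to 258.8 at GD4.5), and fell for 5 and rose for 1 in CON (74.3 to 99.4 at GD5.5, 126.8 to 229 at GD4.5). Decidual sums were apart between the days in both exposures, and muscle and epithelial sums in CON alone. Macrophage genes fell for 2 of 6 in GEN and 5 of 6 in CON. Stromal genes rose for 1 and fell for 1 of 8 in GEN, and rose for 4 in CON. The part of these cell types in the members' changes was not tested.

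Genes that make, cut and bind collagen were read from 11 lists. Between exposures 0 of their genes were called on any day or in the average except Mmp12, the macrophage elastase, at GD3.5 (1 of 12 metalloproteinases tested; 2.78, SE 0.52, adjusted p = 0.0294). At GD3.5, 0.127% of all genes were called between exposures. From GD1.5 to GD3.5, 2.58% of all genes were called higher and 2.49% lower in GEN, and 1.15% and 1.39% in CON. Over that change metalloproteinases fell for 5 of 13 in GEN and 4 of 13 in CON, and 0 rose. They included Mmp7, or matrilysin, an epithelial enzyme (-7.65 in GEN, adjusted p = 1.93e-05, and -6.81 in CON, 0.000249), Mmp10 (-3.42 and -3.10), Mmp11 (-2.14 and -1.97) and, in CON, Mmp12 (-3.38). Of 12 matricellular genes, Thbs2, a thrombospondin, fell in GEN (-1.36, adjusted p = 0.00672) and Ccn2, which encodes connective tissue growth factor, rose in CON (2.001, 0.00457). Of 7 genes for TGF-beta and its receptors, Tgfb2 rose (0.79) and Tgfbr1 fell (-0.36) in GEN, and of 13 basement membrane partners Lama2 rose in GEN (1.04). The 7 remaining lists had 0 calls there.

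From GD4.5 to GD5.5, 22.4% of all genes were called in GEN (13.2% higher and 9.2% lower). In CON 30.9% were called (16.5% higher and 14.4% lower). Over this change 3 of 11 biosynthesis enzymes and chaperones rose in GEN, and 4 of 10 rose and 1 fell in CON. P4ha2, a prolyl hydroxylase subunit, rose by 1.02 in GEN (adjusted p = 0.00123) and 1.32 in CON (3.48e-05), and Plod2, a lysyl hydroxylase, by 0.70 and 0.79. Among the procollagen processing genes 2 rose and 2 fell of 6 in GEN, and 2 rose and 1 fell of 7 in CON. Adamts3, a procollagen N-proteinase, rose by 2.26 in GEN (0.000104) and 3.23 in CON (3.54e-07), while Tll1, a tolloid-like proteinase, fell by 1.82 and 2.42. Of 5 lysyl oxidases, which cross-link collagen and elastin, 0 were called in GEN, and in CON Lox rose (1.23, 0.00064) and Loxl1 (-0.61) and Loxl2 (-0.50) fell.

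Metalloproteinases fell for 3 of 12 in GEN, and fell for 5 and rose for 1 in CON, where 22.4% and 30.9% of all genes were called. Mmp3, or stromelysin 1, fell by 1.19 in GEN (adjusted p = 0.0207) and 2.07 in CON (0.000177), and Mmp16 by 1.002 and 1.35; Mmp7 was the gene that rose (2.93 in CON). Of 5 inhibitors, Reck fell in both exposures (-0.90 in GEN and -0.89 in CON) and Timp2 in CON (-0.66). Of 13 basement membrane partners, 3 rose and 4 fell in GEN, and 5 rose and 2 fell in CON. The laminin chains Lama1 (1.72 in GEN and 2.71 in CON) and Lama5 (0.92 and 1.81) rose in both exposures, and Lama2, the muscle laminin chain, fell in both (-1.08 and -0.99).

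Of 10 elastic fibre partners 3 rose and 2 fell in each exposure, with Emilin2 up by 1.41 in GEN and 1.73 in CON and Efemp1 down by 1.19 and 1.63. Matricellular genes fell for 2 of 12 and rose for 1 in GEN, and fell for 6 and rose for 1 in CON. Thbs4, a thrombospondin, was the gene that rose in both (1.74 in GEN and 2.51 in CON), and Tnxb, which encodes tenascin X, fell in both (-1.50 and -1.49). The other small proteoglycans had 0 of 6 called in GEN, and 3 fell in CON (Prelp, -1.03, Fmod, -0.73, and Ogn, -0.68). Of 13 receptors of collagen and fibronectin, 1 rose and 1 fell in GEN, and 2 rose and 2 fell in CON, with the integrin chain Itga5 up (0.84 in GEN and 0.69 in CON) and the collagen receptor Ddr2 down (-0.55 and -0.49). Tgfbr2, the type II TGF-beta receptor, was the 1 gene of 7 called in its list, lower by 0.47 in GEN and 0.97 in CON. The counts of these last 2 lists lay near or below the share of all genes called, 22.4% in GEN and 30.9% in CON. In GEN the same held for biosynthesis enzymes and chaperones, metalloproteinases, their inhibitors and matricellular genes. It held there as well for lysyl oxidases and the other small proteoglycans, with 0 called.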

How the data were processed

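Each sample's total RNA was labelled with Cy3 and hybridised to 1 array, and the authors deposited the scanner output of Feature Extraction 9.5, per the file headers and the submitters' processing notes. The values are the processed green intensity of 45018 spots (43379 not controls, 41174 probes), background-corrected by the scanner software per the file headers; the deposited table of all samples has identical intensities (largest difference 0%), with 0 unused columns of samples. Groups and replicate numbers came from the sample titles.

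From the deposited intensity, log2 values were taken and scaled by subtracting, on each array, the 75th percentile of the spots that are not controls. Spots marked as outliers were left out, and repeated spots averaged. RefSeq names were found for 22951 probes by accession, 6659 by symbol and 3109 by synonym, and 8455 kept the name in the scanner file. Group means of all 29 arrays were fitted with limma 3.58.1 (R 4.3.3, statmod 1.5.0 and version 1.17.8 of data.table), and a gene was tested if 3 or more arrays of the compared groups had it well above background, with Benjamini-Hochberg adjustment over all of them and a threshold of 0.05. Figures used matplotlib 3.10.9 (Python 3.11.15, numpy 2.4.6, pandas 2.3.3). The number of arrays limits the precision: the median standard error of GEN minus CON was 0.222 at GD1.5, 0.236 at GD3.5, 0.219 at GD4.5 and 0.21 at GD5.5. Data were also simulated with equal group means and independent noise, of each gene's residual spread over all 29 arrays. Changes were placed in GEN at GD3.5 (20360 genes, 200 changed in all, split evenly between the sizes). There the fit called 60.7% of log2 changes of 1 and 82.2% of changes of 2, with 10 false calls. These shares depend on the number of genes changed and need not hold for the real comparison, where 26 genes were called.

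The members, the gene lists and the tests were chosen with earlier results of these data known. Values on every array are given for members called between exposures, the 4 largest called rises and falls from GD4.5 to GD5.5 and 2 each way from GD1.5 to GD3.5 in each exposure, and 12 fixed examples of the roles; other members are named where their family is described, and from the pathway lists up to 4 called genes a comparison. The values of Lum, Fbn2, Col1a2 and other members not called between exposures are shown after they were seen. Only for GEN against CON at GD5.5 did the deviations of all 4 same-numbered pairs correlate (r = 0.331 to 0.426). Pairs 1, 2 and 4 there each shared a slide, so for them number and slide cannot be told apart. The replicate block called 0 members on that day too.

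The alternatives tried were normexp (offset 50), quantile normalization, median scaling (50th percentile), a filter for genes above background on all 29 arrays or none, averaging a gene's probes, a fixed or a random block for slide, a block for the replicate number, a fit on the compared arrays alone, trend and robust settings, and leaving out each array in turn.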

Additional observations from a re-analysis of the deposited data

Results flagged for a closer look

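For the 21 members given array by array, the highest or lowest of 4 arrays in a group lay far from the others, by Dixon's gap over range, in 3 of 105 groups, and chance flags about 1 in 20 groups. Col22a1 was low on GD5.5 CON 3 (gap over range 0.837), with 3.82 there, against 4.89, 4.72 and 4.88 on the other GD5.5 CON arrays. Ltbp1 was low on GD1.5 GEN 1 (0.833), at 0.05, against 0.43, 0.41 and 0.48. Vcan was low on GD4.5 GEN 4 (0.837), at -1.28, against 0.45, 0.69 and 0.37. No member was called between exposures on any of these groups' days.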

How the results depend on the processing

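Single members were tallied where the reported fit called them, or where a comparison between exposures gave an unadjusted p under 0.05. Apart from leaving out arrays, these kept their direction and their side of the threshold in 1076 of the comparisons with an alternative. They lost the call in 111, gained it in 5 and turned in 2. The 2 that turned did so with the mean over probes: Col14a1 between exposures at GD4.5 (-0.17) and Col2a1 from GD4.5 to GD5.5 in GEN (0.0214). Calls gained by other members are outside this tally. From GD4.5 to GD5.5 in GEN, for example, normexp called Col17a1 (0.95) and Col6a6 (1.29) higher, where the reported fit had both lower and uncalled. Counts of members called were within 1.5 times the reported count in 107 cases and moved in 14. Between exposures at GD3.5 the count was 1 after normexp (Ltbp2), with the mean over probes and with slide as a fixed block (Col12a1), 1 on the compared arrays only, where Col6a4 (1.11, adjusted p = 0.0374) was called and neither Ltbp2 nor Col12a1, and 0 with the replicate block; at GD5.5 it was 13 after normexp. For the average over days it was 2 with quantile normalization, slide as a random block, the replicate block, and trend and robust settings, Lum being the second. From GD1.5 to GD3.5 in CON it was 1 after normexp and 2 with slide as a fixed block. From GD4.5 to GD5.5 in GEN it was 4 with slide as a fixed block and 0 on the compared arrays only. The cause of these moves was not tested, except that a fit on fewer arrays has fewer samples. After normexp the fifth percentile of intensity was 318.6, 540 and 248.8 on GD5.5 GEN 1, 2 and 3, 400.7 on GD3.5 CON 3, 153.7 on GD3.5 GEN 1 and 85.48 on GD1.5 CON 1, against 59.09 to 66.04 on the other arrays.

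With 1 array left out, the counts ranged from 0 to 0 at GD1.5, 0 to 2 at GD3.5, 0 to 0 at GD4.5, 0 to 4 at GD5.5 and 1 to 2 for the average. They ranged from 2 to 8 in GEN and 1 to 3 in CON from GD1.5 to GD3.5, from 9 to 27 in GEN and 24 to 30 in CON over the change to GD5.5, and were 0 for both differences between exposures in a day change. Outside GEN against CON at GD5.5 the same-numbered pairs did not all correlate (r = -0.26 to 0.49 over the other 9 pairs between exposures). The replicate block changed no count of members by over 1.5 times other than those given above.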

Other observations

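Other cell types that a uterine sample can hold were read from the remaining marker lists. From GD4.5 to GD5.5 endometrial gland genes fell for 1 of 7 in GEN and 3 of 8 in CON, and endothelial genes fell for 3 of 8 in GEN, and rose for 2 and fell for 2 in CON. Mesothelial genes rose for 1 and fell for 3 of 6 in GEN, and rose for 1 and fell for 1 in CON. Ovary genes rose for 1 and fell for 1 of 7 in each exposure, and 1 of 4 cartilage genes fell in CON alone. Adipocyte and red blood cell lists had 0 genes called in either exposure by limma. From GD1.5 to GD3.5 endothelial genes rose for 3 of 8 in GEN, 1 macrophage gene fell in GEN, and 1 epithelial gene and 1 decidual gene fell in each exposure.

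Fat markers varied between samples of 1 group. The summed level of the adipocyte list was 1.90 to 139.2 on the GD4.5 GEN arrays and 2.73 to 43.9 on the GD1.5 GEN arrays, with GD4.5 GEN 2 and GD1.5 GEN 1 the highest. Other probes of called members mostly shared the sign of the chosen probe, in 54 of 57 probe comparisons over the day changes, among probes above background on 3 or more of the compared arrays. The exceptions were other probes of Col14a1 in CON and of Col2a1 and Fn1 in GEN, all from GD4.5 to GD5.5. Of 9 dimmer probe comparisons 2 had the opposite sign, for Col2a1 in GEN (0.25) and Col4a3 in CON (0.25), both on probes above background on 0 of 8 arrays over the same change.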
